A study of Mus musculus with 6 samples.

Results

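Hepatocyte transcription factors and nuclear receptors were followed in mouse liver as a set of 32 genes, picked by gene symbol from the 24034 genes of the deposited table. All 32 were found. Of these, 31 reached a mean of 0.5 FPKM over the 6 libraries and were tested, and only Nr2f1 did not. FPKM is the number of fragments mapped to a gene, scaled for its length and for the depth of the library, so levels of different genes below are levels per length. The set was read as 9 liver-enriched factors, 19 nuclear receptors and 4 other factors. Hnf4a and Nr5a2, which are nuclear receptors by structure, were counted with the liver-enriched factors. Liver RNA came from C57BL/6 mice aged 25 weeks. The 3 HO libraries carry the genotype label lncenc13A/3A, which is read as homozygosity for an altered allele of Lncenc1, a gene for a long non-coding RNA. The other 3 libraries are wild type (WT), labelled lncenc1wt/wt. The design text of the series calls the altered animals knockouts, and no source used here describes the altered allele. The labels name no treatment and do not state whether each library is a different animal, so the p-values cover only the variation among these libraries, which may be technical. Lncenc1 itself was not analysed here, and the genotypes rest on the labels.

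The libraries were alike in total, with summed FPKM of 495570 to 518218 and relative depths of 19100000 to 24600000 read equivalents. They were not alike in all respects. HO replicate 1 stood apart within its group, since the acute phase gene Saa1 had 111.0, 2525 and 2630 FPKM in HO replicates 1, 2 and 3, against 125.3, 65.6 and 161.7 FPKM in the WT libraries. Nnt, a mitochondrial transhydrogenase gene that is deleted in part in the C57BL/6J substrain, had 1.14, 0.794 and 1.48 FPKM in HO and 26.1, 45.0 and 24.4 FPKM in WT. The labels give no substrain, so genetic background cannot be told apart from the Lncenc1 genotype in any result. The defining markers of hepatocytes were abundant in all 6 libraries, with 7 of the 8 listed ones in the table and summed levels of 41397 to 45768 FPKM in HO and 46356 to 49153 FPKM in WT.

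Hepatocyte identity rests on a network of liver-enriched factors that bind each other's promoters and the promoters of the genes for plasma proteins, bile acids and lipid carriers. HNF4A, the FOXA proteins, C/EBP alpha, the ONECUT factors, PROX1 and LRH-1 (the product of Nr5a2) belong to it. The nuclear receptors add control by small lipophilic ligands: LXRs sense oxysterols, retinoic acid and thyroid hormone receptors bind DNA as partners of RXR, and the glucocorticoid receptor responds to adrenal steroids. A group of orphan receptors, such as the COUP-TFs, often competes with these for the same DNA elements. Receptor RNA is only one layer of this control, as ligand supply and coregulators also set the activity.

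The promoter sequence is shown for Foxa3, the member with the smallest p-value. It is a RefSeq window on build GRCm38.p6, written 5′ to 3′ in the direction of the gene and ending 1 base before its start. It is read on the minus strand at chr7:19023540-19023789, and the capitals mark a TATAAA that begins at position -36 from the start.
Foxa3: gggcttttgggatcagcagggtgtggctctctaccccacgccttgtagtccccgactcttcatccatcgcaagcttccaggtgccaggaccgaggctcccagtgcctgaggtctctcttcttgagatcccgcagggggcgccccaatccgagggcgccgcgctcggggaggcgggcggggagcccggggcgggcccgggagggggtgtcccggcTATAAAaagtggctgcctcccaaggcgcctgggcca
In all, 27 of the 32 members had an entry, with 43 windows of 250 bases before to 50 bases after a start. Thra, Zhx2, Ahr, Nr3c1 and Onecut2 had none. Both strands were searched, and a motif counted once per window. TATAAA stood in 7 of the 43 windows, against 13.6% of all 32851 windows. The nuclear receptor half-site AGGTCA stood in 6 windows (Hes6, Nr5a2, Rara, Rarg, Rxra and Thrb), against 16.3% of all. TGTTTAC, a FOXA site, was in 3 windows (Foxa1, Nr2f1 and Rxrb), against 3.65% of all. Neither the C/EBP palindrome TTGCGCAA nor the HNF4 direct repeat (AGGTCA, any base, AGGTCA) occurred in a window of a member, where the shares of all windows were 0.183% and 0.0396%. These are matches of letters, not binding sites. The ratio of observed to expected CpG had a median of 0.609 over the 43 windows, against 0.742 over the windows of all genes tested and 0.384 over all windows.

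No member passed the test between HO and WT livers (limma, Benjamini-Hochberg adjustment over all 13250 genes tested, threshold 0.05). In the higher direction 0 of 31 members were called, beside 0.325% of all genes, and in the lower direction 0 of 31, beside 0.815%. The member with the smallest adjusted p was Foxa3 (limma adjusted p = 0.0918). An unadjusted p under 0.05 was reached by 2 members with higher levels in HO, Hnf4a and Foxa3, and by 4 with lower levels, Ahr, Nr1h2, Rarb and Thra. Those are 6.45% and 12.9% of the members, beside 5.01% and 16.5% of all genes tested. Of the 4 lower ones, Rarb met the filter of 0.5 FPKM only through WT. Median-of-ratios scaling made the split 6 higher and 2 lower of 31 members, and quantile normalization made it 4 and 2. Of all genes, 18.5% and 18.7% reached that p under these scalings, with both directions pooled. These pooled shares match neither direction alone. Over all genes the calls at an adjusted p under 0.05 numbered 43 higher and 108 lower, against 70 and 64 under the first of these scalings and 56 and 72 under the other.

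Counted without a test, every HO library lay above every WT library for 4 members, Hnf4a, Foxa3, Nr5a2 and Nr3c1, which is 12.9% beside 6.42% of all genes. Every HO library lay below every WT library for 4 others, Ahr, Nr1h2, Rarb and Thra, again 12.9%, beside 21.4% of all genes. Rarb counts here although it met the filter of 0.5 FPKM only through WT. The fitted log2 change (HO over WT, on log2(FPKM + 0.5), which understates the change of low genes) was above 0 for 16 of 31 members, or 51.6%, against 35.4% of all genes. It exceeded 0.5 in size for Foxa3, Prox1, Rarb and Ahr, or 12.9%, against 12.4% of all genes. The 95% interval stayed within a log2 change of 1 in either direction for 27 of the 31 members. Those of Foxa3, Onecut1, Prox1 and Rarb reached further, upward in Foxa3 and Prox1 and downward in Onecut1 and Rarb.

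**Figure D1:**
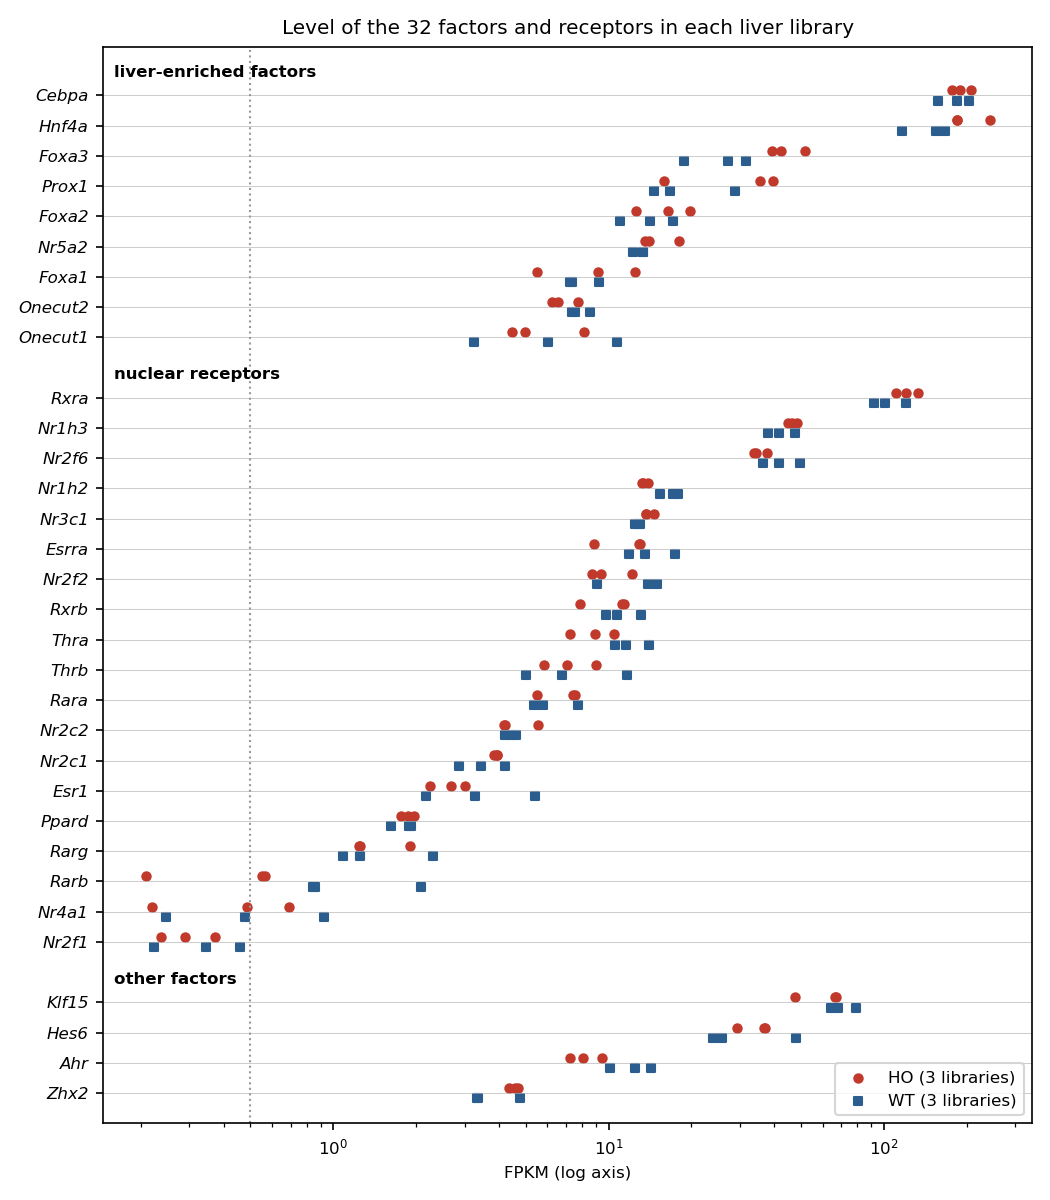
Level of each of the 32 genes in FPKM on a log axis, with 1 point per library, circles for the 3 HO and squares for the 3 WT libraries. The dotted line is the filter at a mean of 0.5 FPKM. Levels run from Hnf4a and Cebpa above 100 FPKM down to Nr2f1 and Nr4a1, and in most rows the circles and squares overlap.

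**Figure D2:**
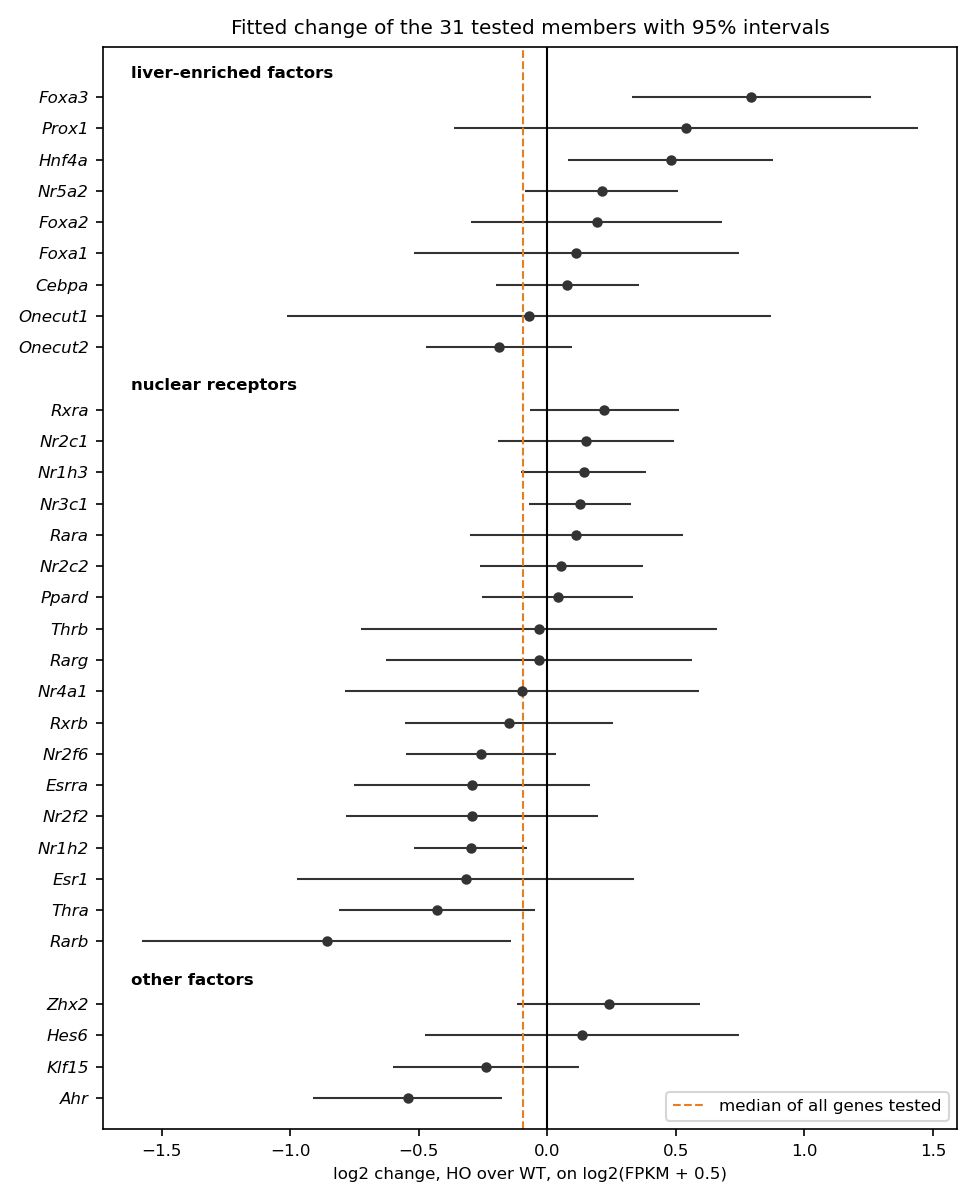
Fitted log2 change (HO over WT) of the 31 tested genes with its 95% interval from limma. The solid line is 0 and the dashed line the median of all genes tested, -0.09. The intervals of Hnf4a and Foxa3 lie above 0 and those of Nr1h2, Rarb, Thra and Ahr below it, and none of the 6 passed after adjustment. Rarb and Nr4a1 met the filter only through WT.

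The liver-enriched factors had a median log2 change of 0.19, with 7 of 9 above 0, beside a median of -0.09 over all genes tested. Median-of-ratios scaling gave 0.30 and quantile normalization 0.27, where the median of all genes was 0.0062 and -0.0020. Single libraries moved it, to 0.08 when HO replicate 1 was left out, 0.35 for HO replicate 2 and 0.32 for WT replicate 2. The summed level of the 9 genes was 505.9, 565.0 and 496.3 FPKM in the HO libraries and 354.8, 442.6 and 472.3 FPKM in the WT libraries. The sums of HO all lay above those of WT, and most of each sum was Cebpa and Hnf4a.

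Hnf4a, the receptor-type factor at the centre of the hepatocyte network, had 183.6, 242.6 and 184.1 FPKM in the HO libraries, against 116.7, 154.6 and 167.4 FPKM in the WT libraries. The groups did not overlap, but the lowest HO library and the highest WT library were close, and WT replicate 1 was the lowest of all 6. Means were 203.4 ± 33.9 FPKM in HO and 146.2 ± 26.4 FPKM in WT (SD, n = 3 each), and the log2 change was 0.48 ± 0.17 (SE, limma adjusted p = 0.171). Its value was 0.33 without WT replicate 1 and 0.35 without HO replicate 2. Hnf4a lies on the plus strand of chromosome 2, from 163506808 to 163572910 (mm10). The gene-level values do not separate its upstream and downstream starts.

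The 3 FOXA genes encode winged helix proteins that open chromatin at liver enhancers. Foxa3 was the most abundant of them, with 42.4, 51.8 and 39.1 FPKM in HO and 18.9, 31.5 and 27.1 FPKM in WT. All 3 HO libraries were above all WT libraries, and means were 44.5 ± 6.59 FPKM in HO and 25.8 ± 6.40 FPKM in WT (SD, n = 3 each). The fitted log2 change was 0.79 ± 0.20 with a 95% interval of 0.33 to 1.26, or 1.73-fold (limma adjusted p = 0.0918). Over the 15 other settings of the fit its adjusted p lay between 0.0770 and 0.226, and its log2 change between 0.59 (without WT replicate 1) and 0.95 (without WT replicate 2). Foxa3 spans 19013284 to 19023538 on the minus strand of chromosome 7. Foxa1 had 12.5, 5.52 and 9.12 FPKM in HO and 7.39, 9.24 and 7.22 FPKM in WT, so HO replicate 2 was the lowest and HO replicate 1 the highest of all 6. Foxa2 ranged from 12.5 to 19.7 FPKM in HO and from 11.0 to 17.1 FPKM in WT. The intervals of their log2 changes were -0.52 to 0.74 for Foxa1 and -0.29 to 0.68 for Foxa2. Foxa3 made up 56.9%, 74.2% and 60.5% of the summed FPKM of the 3 genes in HO, against 46.7%, 54.4% and 59.8% in WT, where HO replicate 1 and WT replicate 3 overlapped.

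Cebpa, the leucine zipper factor of hepatocyte metabolism, was the most abundant liver-enriched factor in WT. It had 206.9, 189.1 and 177.2 FPKM in HO and 157.1, 184.0 and 203.8 FPKM in WT, with overlapping groups and an interval of -0.20 to 0.36. Nr5a2 encodes LRH-1, a receptor for phospholipids that drives bile acid genes. Its levels were 14.0, 13.6 and 18.0 FPKM in HO and 13.3, 12.3 and 13.3 FPKM in WT, which did not overlap, and its log2 change was 0.21 ± 0.13 (SE, limma adjusted p = 0.379). Without HO replicate 3 it was 0.088, and with median-of-ratios scaling 0.32. Prox1, a homeodomain corepressor of HNF4A and LRH-1, had 15.9, 35.5 and 39.6 FPKM in HO and 16.7, 14.7 and 28.9 FPKM in WT. Here HO replicate 1 lay among the low WT libraries while the other HO libraries were the highest of all 6. The log2 change of Prox1 was 0.54 with an interval of -0.36 to 1.44, and 0.95 without HO replicate 1 (limma adjusted p = 0.455 with all libraries and 0.123 without that one). Leaving out HO replicate 3 gave 0.30; the value was 0.35 when WT replicate 2 was left out and 0.83 when WT replicate 3 was.

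The ONECUT genes encode cut-homeodomain factors of liver development, and Onecut1 is also known as HNF6. Onecut1 was the least abundant liver-enriched factor, with 4.46, 8.13 and 4.99 FPKM in HO and 3.24, 10.7 and 6.02 FPKM in WT. WT libraries spanned both extremes, and the coefficient of variation was 33.9% in HO and 56.8% in WT. Onecut2 had 6.54, 6.22 and 7.77 FPKM in HO and 7.38, 8.59 and 7.58 FPKM in WT. Its HO replicate 3 overlapped the WT libraries, and the log2 change was -0.19 ± 0.12 (SE, limma adjusted p = 0.411). The interval for Onecut1 was wide, -1.01 to 0.87.

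The 18 nuclear receptors tested had a median log2 change of -0.07, with 7 above 0, close to the -0.09 of all genes. It was 0.0061 after median-of-ratios scaling, 0.040 after quantile normalization and 0.015 without HO replicate 1, so its sign was not settled. Under those settings the median of all genes was 0.0062, -0.0020 and -0.09. The summed level of these 18 was 294.2, 294.7 and 314.4 FPKM in HO and 276.2, 299.5 and 323.5 FPKM in WT, with HO inside the range of WT.

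Among the receptors for sterols, Nr1h3 (LXR alpha), the form that is enriched in liver, had 44.8 to 48.3 FPKM in HO and 37.8 to 47.4 FPKM in WT. Its widely expressed paralogue Nr1h2 (LXR beta) had 13.3, 14.0 and 13.2 FPKM in HO, against 17.1, 17.9 and 15.3 FPKM in WT. The 3 HO libraries of Nr1h2 differed little among themselves and were all below the WT libraries. Its log2 change was -0.30 ± 0.09 with an interval of -0.52 to -0.08 (SE, limma adjusted p = 0.138), and the adjusted p was 0.0661 at its smallest over all settings, with array weights. The ratio of Nr1h3 to Nr1h2 was 3.62, 3.32 and 3.39 in HO and 2.21, 2.33 and 3.10 in WT. Nr1h2 lies on the minus strand of chromosome 7, from 44549616 to 44553951.

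RXR is the partner that LXR, RAR and thyroid hormone receptors need to bind DNA. Rxra was the most abundant member of the nuclear receptor group, with 110.3, 120.9 and 133.6 FPKM in HO and 92.0, 101.3 and 120.1 FPKM in WT. These ranges overlapped, and the log2 change was 0.22 ± 0.12 (SE, limma adjusted p = 0.348). Leaving out WT replicate 1 gave 0.14, and median-of-ratios scaling 0.34. Rxrb ranged from 7.88 to 11.3 FPKM in HO and from 9.82 to 13.1 FPKM in WT. Rxra exceeded Rxrb by a factor of 14.0, 10.8 and 11.8 in the HO libraries and of 9.37, 9.40 and 9.18 in the WT libraries, which were almost equal to each other.

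The retinoic acid receptors were led by Rara, at 5.50 to 7.58 FPKM in HO and 5.38 to 7.72 FPKM in WT. Rarg, better known from skin, stayed between 1.24 and 1.90 FPKM in HO and between 1.08 and 2.31 FPKM in WT. Rarb, which is itself induced by retinoic acid in many cells, had 0.208, 0.567 and 0.550 FPKM in HO, against 2.09, 0.857 and 0.845 FPKM in WT. HO was below WT in every library, HO replicate 1 was the lowest and WT replicate 1 stood far above the other WT libraries. The log2 change was -0.86 ± 0.30 with an interval of -1.58 to -0.14 (SE, limma adjusted p = 0.173), and it was -0.54 without WT replicate 1 and -0.66 without HO replicate 1. These levels correspond to 21.8 to 210.0 read equivalents a library. The mean of Rarb was 0.442 FPKM in HO and 1.26 FPKM in WT, so it met the filter of 0.5 FPKM only through WT. Exons of Rarb overlap those of Top2b on the opposite strand (4.35 to 5.63 FPKM in HO and 4.83 to 5.32 FPKM in WT), and no source used here says if strand was used in counting. Rarb lies on the minus strand of chromosome 14, from 16430839 to 16819156. As a share of summed Rara, Rarb and Rarg it was 2.31%, 7.11% and 5.96% in HO and 22.9%, 10.02% and 8.76% in WT.

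**Figure D3:**
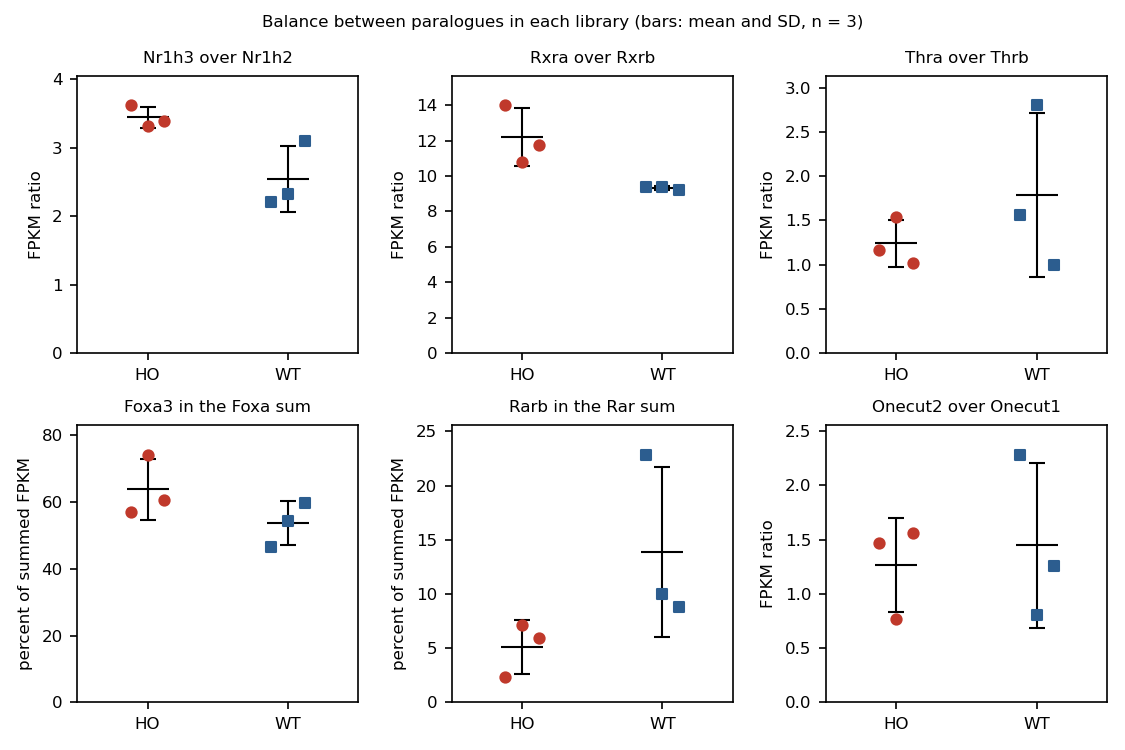
Balance between related genes in each library, as a ratio of FPKM or a percentage of the summed FPKM, with circles for HO and squares for WT and bars for the mean and SD of 3 libraries. HO and WT do not overlap for Nr1h3 over Nr1h2, for Rxra over Rxrb and for the share of Rarb, and they overlap in the other 3 panels.

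Of 10 such ratios and shares, chosen after levels had been seen, 3 showed no overlap between HO and WT: Nr1h3 over Nr1h2, Rxra over Rxrb, and the share of Rarb. An exact two-sided permutation test gave p = 0.1 for each, the smallest that 3 against 3 libraries allow, and 0.333 when adjusted over the 10. Lack of overlap alone fixes that p at 0.1, so the test adds nothing to it. Of all genes tested, taken singly, 27.9% showed no overlap. Rarb met the filter of 0.5 FPKM only through WT. The other 7 ratios and shares overlapped, among them Thra over Thrb, which was 1.16, 1.53 and 1.02 in HO and 1.56, 2.80 and 0.998 in WT.

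Of the hormone receptors, Thra encodes the thyroid hormone receptor alpha and Thrb the beta form, which carries most of the response of liver. Thra had 10.4, 8.92 and 7.22 FPKM in HO, against 10.5, 14.0 and 11.6 FPKM in WT. The groups did not overlap, although HO replicate 1 and WT replicate 1 were nearly equal. The log2 change was -0.43 ± 0.16 with an interval of -0.81 to -0.05 (SE, limma adjusted p = 0.191). Its 3′ exons overlap Nr1d1, the clock repressor REV-ERB alpha, on the opposite strand. Nr1d1 had 45.3, 46.7 and 30.9 FPKM in HO and 38.7, 43.0 and 46.4 FPKM in WT, so reads assigned to Thra cannot be separated from it with certainty. HO replicate 3 was the lowest of all 6 for both genes. Thra lies on the plus strand of chromosome 11, from 98740638 to 98769006. Thrb had 9.003, 5.82 and 7.06 FPKM in HO and 6.76, 5.01 and 11.6 FPKM in WT, with both extremes in WT.

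Nr3c1, the glucocorticoid receptor, was the steadiest of the hormone receptors. It had 13.7, 13.6 and 14.6 FPKM in HO and 12.8, 12.5 and 13.0 FPKM in WT, with coefficients of variation of 4.06% and 1.72%. The groups were close together without overlap, and the log2 change was 0.13 ± 0.08 with an interval of -0.07 to 0.33 (SE, limma adjusted p = 0.426). Esr1, the oestrogen receptor alpha, had 2.24, 3.01 and 2.69 FPKM in HO and 5.39, 3.27 and 2.18 FPKM in WT. WT replicate 1 was the highest and WT replicate 3 the lowest of all 6, and the log2 change was -0.32 with an interval of -0.97 to 0.34. Leaving out WT replicate 1 gave -0.021, and leaving out WT replicate 3 gave -0.59.

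The orphan receptors and the fatty acid sensor Ppard had a median log2 change of -0.10 over 7 tested genes. Nr2f6, a COUP-TF relative and repressor, was the most abundant of them, with 37.7, 34.4 and 33.6 FPKM in HO and 41.6, 49.5 and 36.5 FPKM in WT. WT replicate 3 lay inside the range of HO, and the log2 change was -0.26 ± 0.12 (SE, limma adjusted p = 0.284), -0.14 without WT replicate 2 and -0.15 with median-of-ratios scaling. Exons of Nr2f6 overlap Ocel1 on the opposite strand, which had 13.9, 13.5 and 11.8 FPKM in HO and 18.2, 18.5 and 16.1 FPKM in WT. Nr2f2 (COUP-TFII), which is also known from endothelium and mesenchyme, ranged from 8.72 to 12.2 FPKM in HO and from 9.11 to 15.0 FPKM in WT. Its paralogue Nr2f1 (COUP-TFI) was under the filter, with 0.371, 0.236 and 0.289 FPKM in HO and 0.346, 0.457 and 0.224 FPKM in WT, or 25.0 to 54.7 read equivalents.

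The testicular receptors Nr2c1 and Nr2c2, which repress through direct repeat elements, and the mitochondrial regulator Esrra differed in spread. Nr2c1 lay between 3.83 and 3.95 FPKM in HO and between 2.87 and 4.22 FPKM in WT. Nr2c2 lay between 4.16 and 5.53 FPKM in HO and between 4.20 and 4.62 FPKM in WT. Esrra had 12.9, 8.84 and 13.0 FPKM in HO and 13.6, 11.8 and 17.4 FPKM in WT, and its interval ran from -0.75 to 0.17. Ppard stayed within 1.77 to 1.97 FPKM in HO and 1.62 to 1.91 FPKM in WT, and its interval of -0.25 to 0.33 was among the narrower ones. Nr4a1, an immediate early receptor that is induced by many stimuli, was the least abundant member tested, with 0.690, 0.220 and 0.487 FPKM in HO and 0.923, 0.246 and 0.477 FPKM in WT. Its replicate libraries varied by more than the groups did, with coefficients of variation of 50.6% in HO and 62.7% in WT and at most 61.9 read equivalents. The mean of Nr4a1 was 0.466 FPKM in HO and 0.549 FPKM in WT, so it too met the filter of 0.5 FPKM only through WT.

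Among the other factors, Ahr, the ligand-activated receptor for dioxins and tryptophan metabolites, had 7.23, 8.05 and 9.47 FPKM in HO, against 14.3, 12.5 and 10.1 FPKM in WT. All HO libraries were below all WT libraries, with means of 8.25 ± 1.14 FPKM in HO and 12.3 ± 2.09 FPKM in WT (SD, n = 3 each). The log2 change was -0.54 ± 0.16 with an interval of -0.91 to -0.18 (SE, limma adjusted p = 0.116). Over the other settings the adjusted p of Ahr lay between 0.0708 and 0.307 and its log2 change between -0.67 and -0.43. Ahr lies on the minus strand of chromosome 12, from 35497974 to 35535038.

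Klf15, a Krüppel-like factor of amino acid and glucose metabolism in fasting, was the most abundant of the 4, with 67.0, 66.3 and 47.6 FPKM in HO and 79.4, 64.4 and 68.1 FPKM in WT. HO replicate 3 was low, and the other HO libraries lay within the range of WT. Hes6, a repressor related to Notch targets, had 37.0, 36.8 and 29.2 FPKM in HO and 23.9, 25.9 and 48.0 FPKM in WT, where WT replicate 3 was the highest of all 6. Without WT replicate 3 its log2 change was 0.45, against 0.14 with all libraries (limma adjusted p = 0.132 and 0.800). Zhx2, the repressor that silences Afp and H19 in liver after birth, had 4.36, 4.55 and 4.69 FPKM in HO and 3.32, 3.35 and 4.76 FPKM in WT. WT replicate 3 again lay above HO, and the log2 change was 0.24 ± 0.15 (SE, limma adjusted p = 0.407), or 0.39 without WT replicate 3.

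Opposite-strand exon overlaps, with the same uncertainty, were also annotated for Cebpa, Prox1, Ahr, Nr2f1 and Nr2f2 (all with non-coding genes), Esrra (with Trmt112, at 18.0 to 19.1 FPKM in HO and 18.6 to 20.7 FPKM in WT) and Nr2c2 (with Mrps25, at 4.44 to 5.75 FPKM in HO and 4.94 to 5.95 FPKM in WT). The extreme values were spread over the libraries. Of the 32 members, HO replicates 1, 2 and 3 held the highest of the 6 values for 4, 3 and 5, and WT replicates 1, 2 and 3 for 5, 7 and 8. The lowest value fell to HO replicates 1, 2 and 3 for 4, 5 and 4 members and to WT replicates 1, 2 and 3 for 9, 6 and 4. WT replicate 1 was thus the library most often at the bottom.

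Genes known to work with the members or under them were described in 13 lists, which hold 126 tested entries in all, beside the same background shares. Of these lists, 4 held a gene that passed, and 1 of those genes, Cyp2a4, met the filter only through WT. Exons of Nr3c2, Me1 and Cyp2a4, described below, overlap non-coding genes on the opposite strand. The coregulators, which carry the repressive and activating enzymes to the receptors, had 18 tested genes with 0 calls and a median log2 change of 0.02 (limma, 5 at an unadjusted p under 0.05). The closest were Tbl1xr1 of the NCoR complex, at 4.97 ± 0.487 FPKM in HO and 3.18 ± 0.169 FPKM in WT, and the Mediator subunit Med1, at 7.44 ± 1.23 FPKM in HO and 4.37 ± 1.01 FPKM in WT (limma adjusted p = 0.0703 and 0.0940). Other liver factors had 15 tested genes and 0 calls (limma, 3 at an unadjusted p under 0.05), with Nfib and Atf5 at log2 changes of -0.63 and -0.61 (limma adjusted p = 0.0583 and 0.165). The partners of AHR and HES6, helix-loop-helix proteins and the corepressors Tle1 and Tle3, had 7 tested genes. There were 0 calls among these genes (limma, 1 at an unadjusted p under 0.05). Of these, Id2 had 104.3 ± 15.0 FPKM in HO and 54.5 ± 12.4 FPKM in WT (limma adjusted p = 0.0587), and Id1 a log2 change of 0.67 (limma adjusted p = 0.249).

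Of 28 other nuclear receptors 16 were tested, and 1 fell in HO. Nr3c2, the mineralocorticoid receptor, had 0.990, 1.16 and 1.19 FPKM in HO, against 3.14, 2.81 and 2.48 FPKM in WT, and the groups were far apart. Its log2 change was -1.03 ± 0.14 (SE, limma adjusted p = 0.0300). The call was lost without any 1 of HO replicate 2 (0.0799), HO replicate 3 (0.0737), WT replicate 1 (0.135) and WT replicate 2 (0.127), given as limma adjusted p. Next came Nr1i3, the xenobiotic receptor CAR, with 64.2, 71.1 and 60.2 FPKM in HO and 91.4, 98.7 and 87.5 FPKM in WT (limma adjusted p = 0.0582). In this list 12 of 16 log2 changes were below 0, with a median of -0.15, beside 64.6% of all genes tested below 0. For 7 of the 16 every HO library lay below every WT library, beside 21.4% of all genes. Vdr and Pgr were listed at 0 in all libraries.

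Log2 changes of known targets of the members lay on both sides of 0. Of 10 LXR targets none passed (limma, 5 at an unadjusted p under 0.05), with a median log2 change of -0.39. Pltp, the phospholipid transfer protein, had 14.4 ± 5.42 FPKM in HO and 38.3 ± 11.8 FPKM in WT, and Smpdl3a 14.2 ± 0.351 FPKM in HO and 17.9 ± 1.02 FPKM in WT (limma adjusted p = 0.0703 and 0.104). Of 6 retinoid targets none passed (limma, 1 at an unadjusted p under 0.05), and Dhrs3, which reduces retinal, and Lrat, which esterifies retinol, had log2 changes of -0.50 and -0.56 (limma adjusted p = 0.115 and 0.368). Lrat is also a marker of stellate cells.

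The thyroid hormone targets had 1 of 7 past the threshold. Me1, the cytosolic malic enzyme, had 40.5, 44.9 and 52.5 FPKM in HO and 89.0, 90.5 and 79.1 FPKM in WT, a fall of -0.91 ± 0.12 on the log2 scale (SE, limma adjusted p = 0.0284). The groups were well apart, but the call was lost without any 1 of HO replicate 2 (0.0799), HO replicate 3 (0.0503), WT replicate 1 (0.135) and WT replicate 2 (0.121), given as limma adjusted p. Gpd2 was next, with a log2 change of -0.28 (limma adjusted p = 0.252). The median of the list was -0.22.

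The glucocorticoid targets had 1 of 12 past the threshold. Fkbp5, a chaperone that feeds back on the glucocorticoid receptor, had 39.8, 53.2 and 43.2 FPKM in HO and 9.99, 18.2 and 17.7 FPKM in WT. It rose by 1.57 ± 0.24 on the log2 scale in HO (SE, limma adjusted p = 0.0372), with no overlap. The call was lost without any 1 of HO replicate 1 (0.0515), HO replicate 2 (0.107), HO replicate 3 (0.105), WT replicate 1 (0.0832) and WT replicate 2 (0.112), given as limma adjusted p. The clock gene Per1, on the same list, had 5.53 ± 0.579 FPKM in HO and 8.61 ± 1.63 FPKM in WT (limma adjusted p = 0.0972). The list as a whole was split, with 5 log2 changes above 0 and 7 below, a median of -0.04 and 6 genes at an unadjusted p under 0.05.

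Targets of AHR were few, with 4 tested and 0 called (limma, 2 at an unadjusted p under 0.05). Nqo1, a quinone reductase, had 1.71 ± 0.648 FPKM in HO and 4.52 ± 1.03 FPKM in WT, while Cyp1a2, the P450 of caffeine metabolism, had 333.4 ± 68.9 FPKM in HO and 238.4 ± 14.3 FPKM in WT (limma adjusted p = 0.0769 and 0.138). All 5 tested LRH-1 targets had log2 changes below 0, beside 64.6% of all genes tested. Their median was -0.62, with 0 calls (limma, 4 at an unadjusted p under 0.05). Among them Cyp7a1, the rate-limiting enzyme of bile acid synthesis, had 6.70, 7.53 and 17.1 FPKM in HO and 49.1, 54.4 and 29.1 FPKM in WT, and Shmt1 a log2 change of -0.38 (limma adjusted p = 0.0526 and 0.0932).

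The amino acid genes listed with KLF15 had 8 tested members and 0 calls (limma, 4 at an unadjusted p under 0.05). The lysine-degrading enzyme Aass had 109.7 ± 19.5 FPKM in HO and 71.6 ± 3.00 FPKM in WT, and the arginine transporter Slc7a2 73.2 ± 16.5 FPKM in HO and 48.2 ± 3.62 FPKM in WT (limma adjusted p = 0.0765 and 0.127). Of 6 targets of ZHX2 tested, Cyp2a4 fell, with 0.0574 FPKM in HO replicate 1, a listed 0 in the other HO libraries, and 1.59, 1.71 and 0.987 FPKM in WT (limma adjusted p = 0.0212). Cyp2a4 had a mean of 0.0191 FPKM in HO and 1.43 FPKM in WT, so it met the filter of 0.5 FPKM only through WT. Its reads can be shared with near-identical Cyp2a copies, and the call was lost without any 1 of HO replicate 2 (0.0533), HO replicate 3 (0.0578), WT replicate 1 (0.0944) and WT replicate 2 (0.103), given as limma adjusted p. Mup20, of the same list, had 2790 ± 508.9 FPKM in HO and 1566 ± 390.9 FPKM in WT (limma adjusted p = 0.0895), and shares reads with other Mup genes. The immediate early genes, among which Nr4a1 is usually counted, had 12 tested and 0 called (limma, 6 at an unadjusted p under 0.05). Zfp36 and Jun had log2 changes of -1.10 and -1.09 (limma adjusted p = 0.0509 and 0.0727), while 6 of the 12 were above 0.

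**Figure D4:**
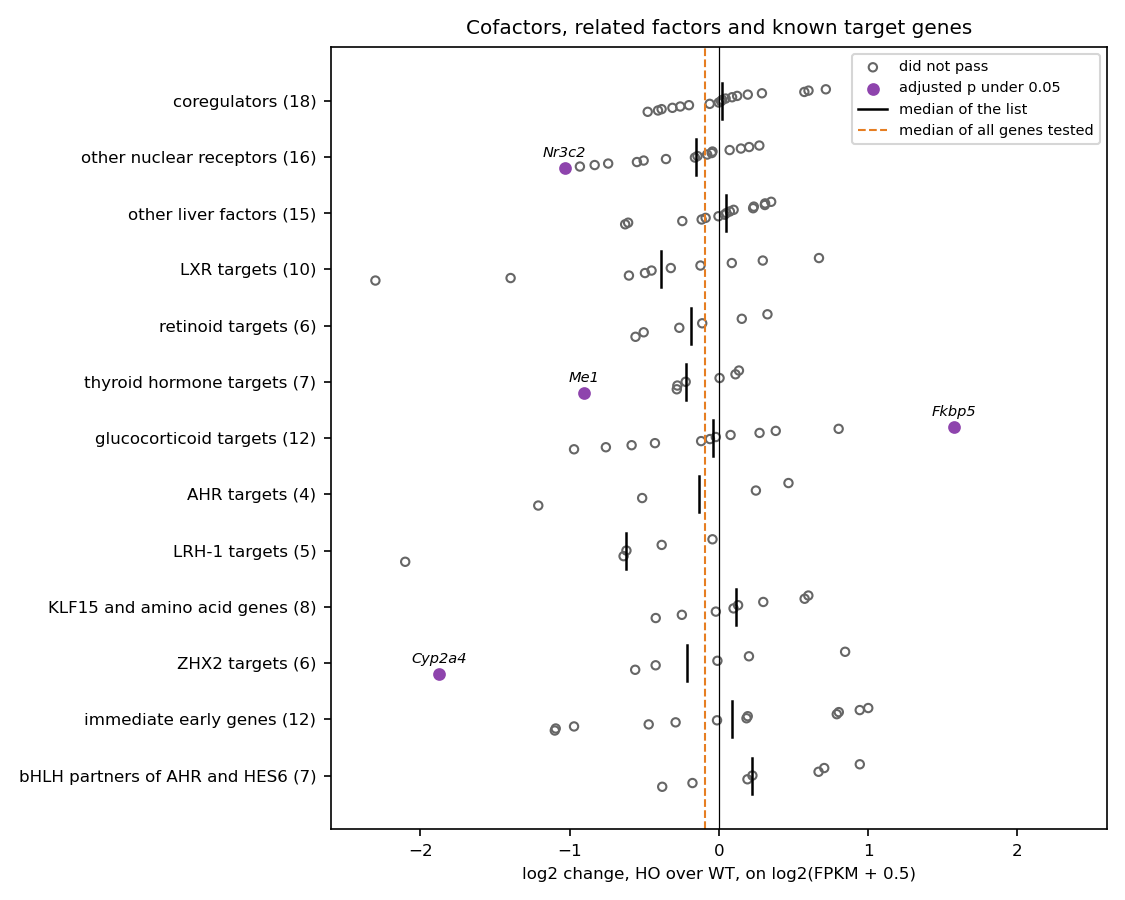
Fitted log2 change (HO over WT) of the tested genes in each of 13 lists, with the number tested in brackets, short bars for the list medians and the dashed line for the median of all genes. Filled points passed at an adjusted p under 0.05: Nr3c2, Me1 and Cyp2a4 below 0 and Fkbp5 above it. Cyp2a4 met the filter only through WT.

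In bulk liver, fewer cells of a type and less RNA per cell cannot be told apart, and some members are also expressed outside hepatocytes. Of the hepatocyte markers 2 of 7 tested rose, beside 0.325% of all genes tested. These were Cps1 at 729.1 ± 111.3 FPKM in HO and 399.0 ± 41.3 FPKM in WT, and Ahsg at 2117 ± 91.8 FPKM in HO and 1481 ± 52.7 FPKM in WT (limma adjusted p = 0.0422 and 0.0496). The other 5 did not pass, and 4 of the 7 log2 changes were below 0, beside 64.6% of all genes tested. Every HO library lay above every WT library for Apoa1, Cps1 and Ahsg, beside 6.42% of all genes. Beside 21.4% of all genes, every HO library lay below every WT library for Alb, Ttr and Serpinc1. Of these, Ttr, the thyroid hormone carrier, had 3724 ± 350.3 FPKM in HO and 5405 ± 324.6 FPKM in WT (SD, n = 3 each), a log2 change of -0.54 (limma adjusted p = 0.0737). The calls of Cps1 and Ahsg were lost without any 1 of HO replicate 2 (0.104 and 0.136), HO replicate 3 (0.0852 and 0.113), WT replicate 1 (0.154 for Cps1 and 0.189 for Ahsg) and WT replicate 2 (0.166 and 0.203), given as limma adjusted p. That of Ahsg was also lost without HO replicate 1 (0.0562) or WT replicate 3 (0.0558), and with quantile normalization (0.122). Stellate and mesenchymal markers, of cells known to express Nr2f2 and retinoid receptors, had 8 of 9 log2 changes below 0, beside the 64.6% of all genes. Their median was -0.49, with summed levels of 75.8 to 103.3 FPKM in HO and 110.7 to 139.3 FPKM in WT. Kupffer cell and macrophage markers had all 7 log2 changes below 0, with sums of 58.0 to 78.1 FPKM in HO and 70.1 to 126.3 FPKM in WT. The high end was WT replicate 1, and the other WT libraries lay inside the range of HO. In WT replicates 1, 2 and 3, Cd5l had 43.4, 23.1 and 23.9 FPKM and Marco 16.2, 2.93 and 1.80 FPKM. Endothelial markers had 7 of 8 below 0, with sums of 47.3 to 50.1 FPKM in HO and 51.5 to 62.8 FPKM in WT. Sums of cholangiocyte markers were 26.9 to 30.6 FPKM in HO and 29.3 to 34.2 FPKM in WT, and those of lymphocyte markers 1.90 to 2.91 FPKM in HO and 2.62 to 3.29 FPKM in WT. None of the 31 tested markers outside hepatocytes passed the test (limma, 8 at an unadjusted p under 0.05, beside 21.5% of all genes). Of these 8, 5 were stellate and mesenchymal markers. The part of cells outside hepatocytes in the lower HO levels of Rarb, Ahr, Nr1h2 and Thra was not tested.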

How the data were processed

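Liver RNA was extracted with Trizol and made into directional Illumina libraries, per the labels' protocols. The authors' deposited table gives FPKM for 24034 genes in 6 libraries, 3 HO and 3 WT. HISAT2, StringTie, HTSeq, DESeq2 and build mm10 are named, per the submitters' processing notes, without versions or roles. No source used here says if strand was used in counting. FPKM is relative to the rest of a library, so abundant genes shift the others. Columns were matched to samples by group and number in their names. All gene identifiers matched GENCODE mouse release 21 (mm10), which gave positions and overlaps. Promoter windows are RefSeq's, on GRCm38.p6.

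Low values were searched for the step of 1 read. Between 36.5% and 39.4% were whole multiples within 0.02 reads, too few to recover counts, so read equivalents are approximate and no count model was fitted. The filter kept the 13250 genes with means of at least 0.5 FPKM. A 2-group model of log2(FPKM + 0.5) was fitted by limma 3.58.1 (R 4.3.3), without a block and with trended eBayes. P-values were two-sided and Benjamini-Hochberg adjusted over all genes tested, with a threshold of 0.05. Ratios of related genes were compared by exact permutation. The fit was tested on simulated data. Tables and figures used Python 3.11.15, numpy 2.4.6, pandas 2.3.3, scipy 1.17.1 and matplotlib 3.10.9.

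The members, the gene lists, the tests and the alternatives were chosen with earlier results of these data known. All 32 members are given. Values per library were due for the 12 with the smallest p and for the most and least abundant of each class, and for each other list the genes past the threshold and the 2 with the smallest p are named. Saa1 and Nnt were named after their values were seen. Alternatives were pseudocounts of 1 and 0.1, no filter, a filter at 1 FPKM, quantile normalization, median-of-ratios scaling, untrended eBayes, array weights, a block for the replicate number, and omission of each library in turn. With Hnf4a and Nr5a2 counted among the nuclear receptors, only the class medians were recomputed. 1 of the lists and a member of another are not reported here.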

Additional observations from a re-analysis of the deposited data

How the results depend on the processing

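No member passed under any of the 15 alternative settings of the fit, in either direction, and the smallest adjusted p of a member was 0.0661, for Nr1h2 with array weights (limma). Of the 31 tested members, 21 kept the sign of their log2 change under every setting. Median-of-ratios scaling turned the sign of Onecut1 (0.031), Rarg (0.052) and Thrb (0.075). Quantile normalization turned that of Onecut1 (0.012), Rarg (0.080), Thrb (0.038) and Nr4a1 (0.042), and array weights that of Thrb (0.081). Leaving out a library in turn gave log2 changes of -0.14 to 0.41 for Foxa1, -0.47 to 0.32 for Onecut1, -0.022 to 0.17 for Cebpa, -0.23 to 0.015 for Rxrb, -0.20 to 0.22 for Rarg, -0.29 to 0.28 for Thrb, -0.066 to 0.12 for Nr2c2, -0.019 to 0.076 for Ppard, -0.32 to 0.098 for Nr4a1 and -0.047 to 0.45 for Hes6. These all include 0. The median of the liver-enriched factors lay between 0.084 and 0.35 when a library was left out, and was 0.11 with Hnf4a and Nr5a2 counted among the nuclear receptors. Array weights gave the lowest value, 0.081. The 151 genes called over the whole table became 100 with a pseudocount of 0.1, 40 with no filter, 77 without the eBayes trend, 941 with array weights, 25 with the replicate block, and 6 to 259 when a library was left out. The cause was not tested. Same-numbered libraries deviated together with correlations of only 0.066, -0.028 and 0.015, within the range of other-numbered ones, -0.13 to 0.13. These values showed no pairing by number. They cannot exclude one, since the deviations of 3 libraries from their mean are bound to each other. With the replicate block 0 members passed (limma, 3 higher and 3 lower at an unadjusted p under 0.05). Median-of-ratios scaling moved the median log2 change of all genes to 0.0062, against -0.09. Of the genes outside the set that passed, Nr3c2 did so under 9, Me1 under 9, Fkbp5 under 7, Cps1 under 8 and Ahsg under 4 of the 15 settings, and Cyp2a4 under 9 of the 14 in which it was tested, each keeping its sign. With the replicate block none of these 6 passed (limma adjusted p of 0.0501 to 0.106). Depth limits Rarb, Nr4a1 and Nr2f1, with at most 210.0, 61.9 and 54.7 read equivalents in a library.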
